A study of Mus musculus with 3 samples.

Results

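The 10 genes described here encode enzymes and a transporter that supply thymocytes, which are T cells still developing in the thymus, with purine nucleotides and DNA precursors. They are Slc29a1, Ada, Adk, Hprt, Dck, Tk1, Rrm1, Rrm2, Tyms and Samhd1, taken as the probe sets whose platform annotation gives exactly that 1 gene symbol. All 10 were measured, of 19938 named genes in all, and Tk1 alone had more than 1 probe set. Thymocyte RNA of 3 wild-type animals (wt #92, #103 and #106, on a mixed FVB and C57BL6 background) was read on Affymetrix MoGene 1.0 ST arrays, 1 array per mouse. The 3 mice form a single untreated group, and the study's lymphomas were not analysed here, so the comparisons below are between genes' spreads and between mice. The labels give no age or sex. For every sample they state an amount of 0.3 µg and a low RNA integrity number, 3, and they carry a lymphoma entry under disease state although titles and genotypes read wild type. The 3 arrays had median probe set levels of 6.70 to 6.72 on the log2 scale, and their number limits the precision of every value. Of the thymocyte marker genes, 14 of 14 measured were above background on all arrays, Cd3e among them at 12.05 ± 0.08 and Rag1 at 13.59 ± 0.22 (log2 level ± SD, n = 3).

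Cells obtain nucleotides by building them anew and by salvage, in which kinases and phosphoribosyltransferases recover nucleosides and bases. Ribonucleotide reductase then turns ribonucleotides into the deoxynucleotides that DNA replication consumes, and thymidylate synthase and thymidine kinase feed the thymidine branch. The thymus is a site of heavy cell death as well as division, so its cells meet much deoxyadenosine from degraded DNA. Without adenosine deaminase, deoxyadenosine is phosphorylated in lymphocytes, largely by deoxycytidine kinase, and the dATP that builds up inhibits ribonucleotide reductase.

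Every one of the 10 genes lay above background on all 3 arrays. A level counted as above background where it exceeded the 95th percentile of 1207 olfactory, vomeronasal and trace amine receptor genes, a threshold that lay between 5.91 and 6.10 on the 3 arrays. By this rule 61.8% of all named genes passed. On its nearest array each of the 10 genes exceeded the threshold by 2.02 to 5.09 on the log2 scale. Probe sets differ in affinity, so the levels of different genes are not set against each other. In a bulk sample, fewer cells of a type and less RNA per cell cannot be told apart.

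**Figure D1:**
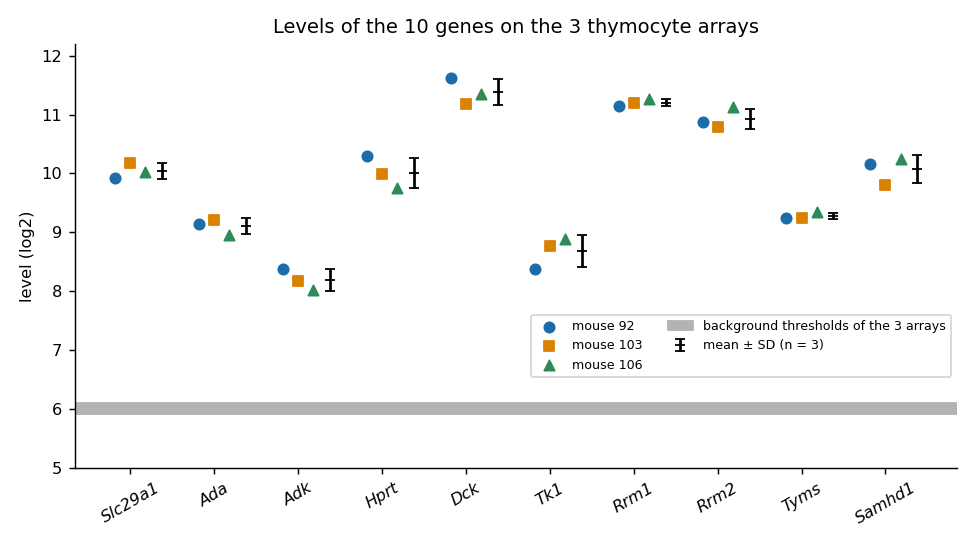
Log2 level (y axis) of each of the 10 genes (x axis) in mice 92 (circles), 103 (squares) and 106 (triangles), with the mean and SD of the 3 mice at the right of each gene and the 3 background thresholds as a grey band at 5.91 to 6.10. All points lie above the band, and the 3 mice lie closest together for Tyms and Rrm1.

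None of the 10 genes was called as varying between the mice beyond genes of like level. From limma came each gene's variance and a prior variance that depends on level. An F ratio of the first over the second was computed from these estimates and is not a test that limma itself reports. It is called limma's test below. In it 0 of the 10 passed at a Benjamini-Hochberg adjusted p of 0.05, with adjusted p between 0.996 and 0.998. Over all 13314 genes tested, 30 passed, or 0.225%, a share at which 0 of 10 does not set these genes apart. At an unadjusted p under 0.05, 0 of the 10 genes and 645 of all tested genes, 4.84%, were found by limma. With 3 mice the test called only wide spreads: the smallest range among the 30 genes called was 1.45 on the log2 scale, or 2.72-fold, against 0.53 for the widest of the 10. Smaller differences between mice are therefore not shown to be absent.

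The SD between mice of the 10 genes ran from 0.05 to 0.27. Its median was 0.18, against 0.13 for all tested genes, and 6 of the 10 exceeded 0.13, a value that by definition as many tested genes exceed as do not. The 10 genes are thus not shown to spread more widely than others. The ranges were widest for Hprt (1.44-fold) and Tk1 (1.43-fold), and 9.71% and 9.35% of tested genes had a larger SD. They were narrowest for Tyms (1.07-fold) and Rrm1 (1.08-fold), where 88.8% and 87.0% of tested genes had a larger SD.

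**Figure D2:**
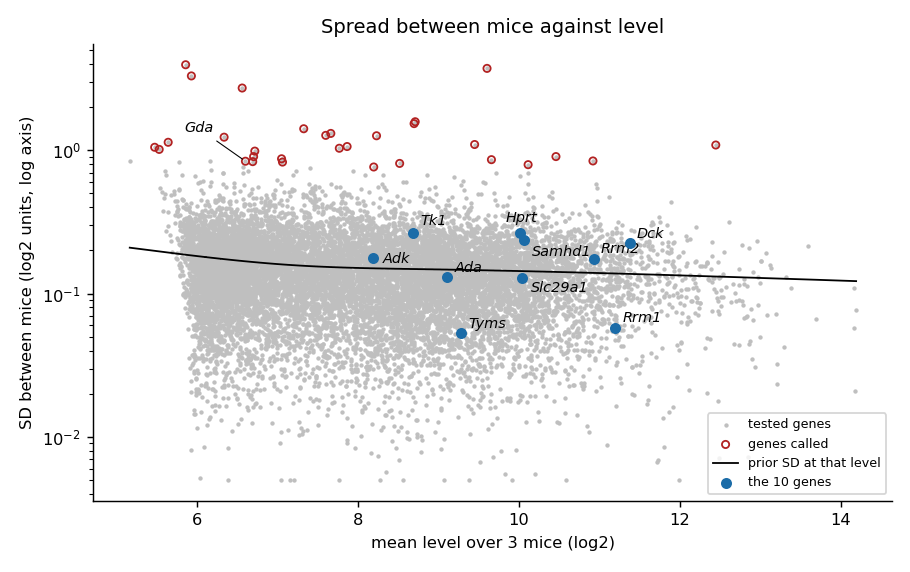
SD between the 3 mice (y axis, log scale, values under 0.005 drawn at 0.005) against mean level (x axis, log2) for 13314 tested genes in grey, with the prior SD as a line, the 30 called genes as open circles and the 10 genes as filled points. The 10 genes lie among the bulk of the grey points, with Tk1 and Hprt near its upper part and Tyms and Rrm1 near its lower part.

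Slc29a1 encodes ENT1, a transporter that lets nucleosides cross the plasma membrane along their gradient. It read 9.92, 10.17 and 10.02 in mice 92, 103 and 106 on the log2 scale, a mean of 10.04 ± 0.13 (SD, n = 3). Mouse 103 was highest and mouse 92 lowest, a range of 1.20-fold that did not pass the limma test (adjusted p = 0.996).

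Ada and Adk act on the same substrate. Ada encodes adenosine deaminase, which turns adenosine and deoxyadenosine into inosine and deoxyinosine, and Adk encodes adenosine kinase, which returns adenosine to AMP. Ada was at 9.15, 9.21 and 8.96 in mice 92, 103 and 106 (mean 9.11 ± 0.13, log2 level, SD, n = 3). Adk was at 8.37, 8.18 and 8.02 (mean 8.19 ± 0.18, log2 level, SD, n = 3). Both genes were lowest in mouse 106, with ranges of 1.19-fold for Ada and 1.28-fold for Adk. Neither passed limma's test (adjusted p = 0.996 for each).

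Hprt, on the X chromosome, encodes the phosphoribosyltransferase that recovers hypoxanthine and guanine. It read 10.29, 9.99 and 9.76 in mice 92, 103 and 106 (mean 10.01 ± 0.26, log2, SD, n = 3). Like Ada and Adk it was lowest in mouse 106, and its range of 1.44-fold was the widest of the 10 genes, at an adjusted p of 0.996 in limma. Among tested genes, 36.6% were lowest in mouse 106.

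Dck and Tk1 encode the cytosolic kinases that trap deoxynucleosides in the cell. Deoxycytidine kinase, the product of Dck, takes deoxycytidine, deoxyadenosine and deoxyguanosine, and thymidine kinase 1 takes thymidine. Dck was at 11.62, 11.18 and 11.35 in mice 92, 103 and 106 (mean 11.38 ± 0.22, log2 level, SD, n = 3). Tk1 was at 8.38, 8.76 and 8.89 in the same mice (mean 8.68 ± 0.27, log2 level, SD, n = 3). The kinases thus differed in direction: mouse 92 had the highest level of Dck and the lowest of Tk1, although neither spread passed limma's test (adjusted p = 0.996 for both). The Tk1 value averages 2 probe sets whose annotated transcripts overlap, and whether probe set 10582809 also reads a second locus is not known from the sources used here. Probe set 10393431 read 8.07, 8.46 and 8.70 and probe set 10582809 read 8.70, 9.06 and 9.09 in mice 92, 103 and 106, so both put mouse 92 lowest and mouse 106 highest. In probe set 10582809, mice 103 and 106 read nearly alike. From that probe set alone the SD of Tk1 was 0.22.

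Rrm1 and Rrm2 encode the large and the small subunit of ribonucleotide reductase, and Tyms encodes thymidylate synthase, which makes dTMP from dUMP. Rrm1 was at 11.15, 11.19 and 11.27 in mice 92, 103 and 106 (mean 11.20 ± 0.06, log2 level, SD, n = 3). Rrm2 was at 10.87, 10.79 and 11.13 (mean 10.93 ± 0.17, log2 level, SD, n = 3). Rrm2, the subunit whose transcript peaks in S phase in dividing cells, had a range of 1.26-fold, and Rrm1 a range of 1.08-fold. Tyms was at 9.25, 9.24 and 9.34 in the same order (mean 9.28 ± 0.05, log2 level, SD, n = 3), the narrowest range of the 10 genes. The pseudogene Tyms-ps, which may share signal with Tyms, has a probe set of its own on the array at 6.69, 6.65 and 6.66.

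Samhd1 encodes a triphosphohydrolase that breaks deoxynucleotides down to nucleosides and so opposes ribonucleotide reductase. It read 10.16, 9.80 and 10.25 in mice 92, 103 and 106 (mean 10.07 ± 0.24, log2, SD, n = 3). Mouse 103 was lowest, by 0.37 below mouse 92 and 0.45 below mouse 106, and limma gave an adjusted p of 0.996. Samhd1 is also transcribed in myeloid cells. Of 13 macrophage and dendritic cell genes, 10 were highest in mouse 103, as were 8 of the 11 tested and 39.1% of all tested genes. The summed linear level of the 13 was 2924, 4738 and 3423 in mice 92, 103 and 106. On all arrays 11 of these 13 genes were above background, and their part in the Samhd1 values was not tested.

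The 4 genes that serve DNA synthesis in S phase, Rrm1, Rrm2, Tyms and Tk1, all had their highest level in mouse 106, where 23.5% of tested genes had theirs. These 4 were grouped with earlier results of these data known, so that share does not measure how unusual they are. Their median deviation from the 3-mouse mean was -0.05 in mouse 92, -0.02 in mouse 103 and 0.13 in mouse 106 on the log2 scale, against 0.00, 0.02 and -0.02 for all tested genes. Mouse 106 exceeded mouse 92 by 0.51 for Tk1, 0.26 for Rrm2, 0.11 for Rrm1 and 0.09 for Tyms. It exceeded mouse 103 by 0.13, 0.33, 0.08 and 0.10 for the same genes. The shared highest mouse is a description of 3 arrays, since no spread of the 4 genes passed limma's test. No full order was shared: Rrm1 and Tk1 were lowest in mouse 92, Rrm2 and Tyms in mouse 103. The medians of mice 92 and 103 alone differed by little, at -0.0067 and 0.0067. Without mouse 92 the median in mouse 106 was 0.057. All 4 genes stayed highest in mouse 106 after quantile normalisation, median centring and cyclic loess normalisation, whereas the lowest mouse for Rrm2 and Tyms turned from 103 to 92 under quantile and cyclic loess normalisation.

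The 6 salvage and turnover genes had no common order. Their median deviation was 0.14, -0.02 and -0.09 in mice 92, 103 and 106. Adk, Dck and Hprt were highest in mouse 92, Ada and Slc29a1 in mouse 103, and Samhd1 in mouse 106. The lowest mouse was 106 for Ada, Adk and Hprt, 103 for Dck and Samhd1, and 92 for Slc29a1. Of all tested genes, 37.4% were highest in mouse 92, 39.1% in mouse 103 and 23.5% in mouse 106, and 35.1%, 28.3% and 36.6% were lowest there. These orders were the same under each of the 3 other normalisations. The median in mouse 103 lay near 0 and changed sign with the processing: it was 0.0228 after quantile and 0.0083 after cyclic loess normalisation, 0.0796 without mouse 92 and -0.1217 without mouse 106. Of the thymocyte markers, 11 of 14 were highest in mouse 92. These markers had median deviations of 0.05, -0.04 and -0.01 and summed linear levels of 92304, 84210 and 86958 in mice 92, 103 and 106. Their part in the salvage values was not tested.

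**Figure D3:**
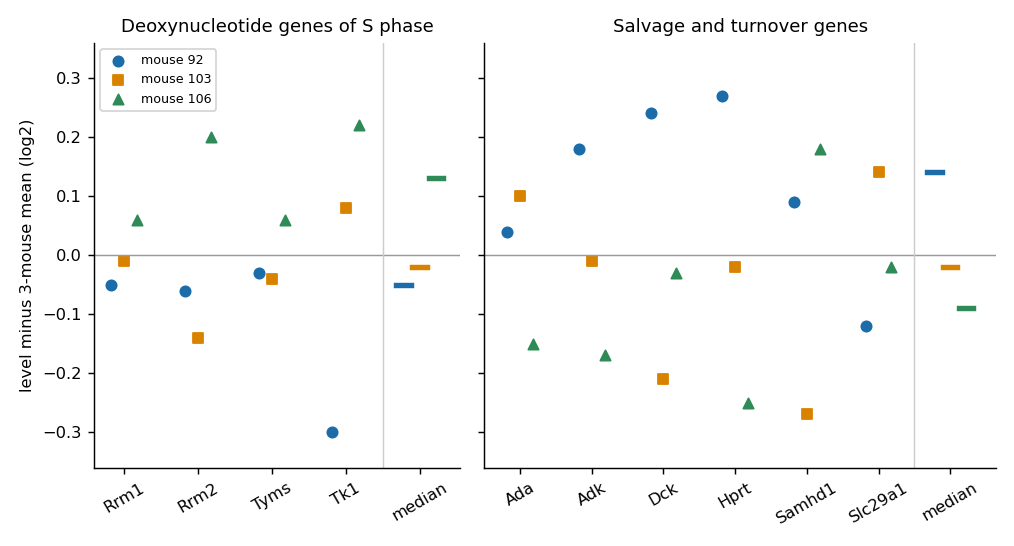
Deviation of each gene's level from its 3-mouse mean (y axis, log2) in mice 92 (circles), 103 (squares) and 106 (triangles), for the 4 S phase genes on the left and the 6 salvage and turnover genes on the right; bars at the right of each panel are the medians over its genes. Mouse 106 is highest for Rrm1, Rrm2, Tyms and Tk1, with a median of 0.13, and the mice change order from gene to gene on the right.

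Markers of division were set beside the S phase genes. Of 20 DNA replication genes, 11 were highest in mouse 106, as were 8 of 14 measured mitosis genes and 23.5% of all tested genes. The median deviation of the replication genes was -0.10, 0.00 and 0.07 in mice 92, 103 and 106, and that of the mitosis genes -0.04, -0.08 and 0.09. The low mouse differed between the lists: 13 of 20 replication genes were lowest in mouse 92, against 35.1% of tested genes. Of the mitosis genes, 9 of 14 were lowest in mouse 103, against 28.3% of tested genes. Single genes also departed from this: the sliding clamp gene Pcna read 12.43, 12.30 and 12.12 in mice 92, 103 and 106, lowest in mouse 106, whereas the proliferation marker Mki67 read 11.05, 10.86 and 11.38. No gene of the replication or mitosis list passed limma's test at an adjusted p of 0.05. An unadjusted p under 0.05 was found for 2 of the 20, 0 of the 14 and 4.84% of all tested genes. Erythroid precursors also divide, and 6 of 7 measured erythroid genes were highest in mouse 103, against 39.1% of tested genes. The erythroid genes had summed linear levels of 769, 1855 and 1626 in mice 92, 103 and 106. Their part in the S phase values was not tested.

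The sequences before the annotated starts of the 4 S phase genes are shown because these genes had the same highest mouse, 106. Beside them are those of Ada and Dck, the members whose loss depletes lymphocytes. Each is the 250 bases before a RefSeq start on the gene's strand in build GRCm38.p6. All 10 genes matched the RefSeq table, 8 of them with a single start. Capitals mark matches, on either strand, to the E2F core (TTCCCGC, in which the pair after TT may also be GG, CG or GC), the CCAAT box (CCAAT), the GC box (GGGCGG) and the core of the YY1 motif (ATGGCGG).
Rrm1 (chr7:102441445-102441694, plus strand): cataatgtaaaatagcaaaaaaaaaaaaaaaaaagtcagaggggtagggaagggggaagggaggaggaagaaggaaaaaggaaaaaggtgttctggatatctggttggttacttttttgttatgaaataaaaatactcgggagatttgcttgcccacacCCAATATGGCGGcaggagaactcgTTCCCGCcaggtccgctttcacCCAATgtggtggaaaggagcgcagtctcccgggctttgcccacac
Rrm2 (chr12:24708004-24708253, plus strand): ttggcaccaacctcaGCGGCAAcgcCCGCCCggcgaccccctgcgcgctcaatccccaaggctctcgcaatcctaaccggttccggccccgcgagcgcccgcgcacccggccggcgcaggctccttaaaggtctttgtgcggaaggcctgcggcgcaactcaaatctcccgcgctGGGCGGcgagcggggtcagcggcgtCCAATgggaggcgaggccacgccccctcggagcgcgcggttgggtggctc
Tyms (chr5:30073626-30073875, minus strand): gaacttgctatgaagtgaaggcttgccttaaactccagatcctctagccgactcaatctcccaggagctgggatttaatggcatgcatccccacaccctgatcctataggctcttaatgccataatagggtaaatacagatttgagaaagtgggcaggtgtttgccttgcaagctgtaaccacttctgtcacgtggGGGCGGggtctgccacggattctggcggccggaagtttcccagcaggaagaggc
Tk1 (chr11:117826015-117826264, minus strand): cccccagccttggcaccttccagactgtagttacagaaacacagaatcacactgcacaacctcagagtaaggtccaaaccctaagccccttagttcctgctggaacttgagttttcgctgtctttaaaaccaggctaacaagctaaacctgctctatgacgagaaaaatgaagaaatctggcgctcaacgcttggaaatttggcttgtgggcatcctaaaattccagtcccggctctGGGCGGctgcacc
Ada (chr2:163750240-163750489, minus strand): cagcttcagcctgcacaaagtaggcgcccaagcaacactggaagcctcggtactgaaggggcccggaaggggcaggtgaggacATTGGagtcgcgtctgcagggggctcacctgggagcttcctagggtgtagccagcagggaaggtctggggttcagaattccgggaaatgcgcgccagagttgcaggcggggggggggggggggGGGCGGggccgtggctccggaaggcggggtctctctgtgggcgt
Dck (chr5:88764763-88765012, plus strand): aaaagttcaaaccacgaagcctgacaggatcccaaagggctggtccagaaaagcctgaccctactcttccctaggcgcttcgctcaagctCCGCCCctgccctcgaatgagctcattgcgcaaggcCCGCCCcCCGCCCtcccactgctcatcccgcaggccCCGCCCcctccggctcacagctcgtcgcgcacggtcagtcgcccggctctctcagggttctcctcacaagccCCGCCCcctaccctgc

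E2F proteins switch on genes of DNA replication at the start of S phase. An E2F core stood before Rrm1, 67 to 61 bases ahead of the start, and before Rrm2, 235 to 229 bases ahead. The windows of Tyms and Tk1 held no such match, and neither did those of Ada, Adk, Hprt, Dck and Samhd1. Among the salvage and turnover genes, 1 of the 8 annotated starts of Slc29a1 had an E2F core, 9 to 3 bases ahead of it, together with a YY1 core and 5 GC boxes. Of 32851 RefSeq windows of this length, 7.89% held one. Rrm1 had 2 CCAAT boxes, the upstream one directly followed by a YY1 core, a motif found in 2.21% of windows; Rrm2 had 1 CCAAT box and 2 GC boxes. Dck had 5 GC boxes and no CCAAT box, and Ada had 1 of each. A CCAAT box was found in 33.8% of all windows and a GC box in 32.7%, and neither Tyms nor Tk1 had any match but 1 GC box. The TATAAA sequence, found in 12.4% of windows, was in none of the 6. The GC content was 72.4% for Rrm2, 67.2% for Ada and 66.0% for Dck, and 46.0% for Rrm1, against a median of 52.4%. No match in a window says only that these letters are not within it. The motifs were chosen after the sequences were read, so the shares over all windows do not measure how unusual these matches are.

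**Figure D4:**
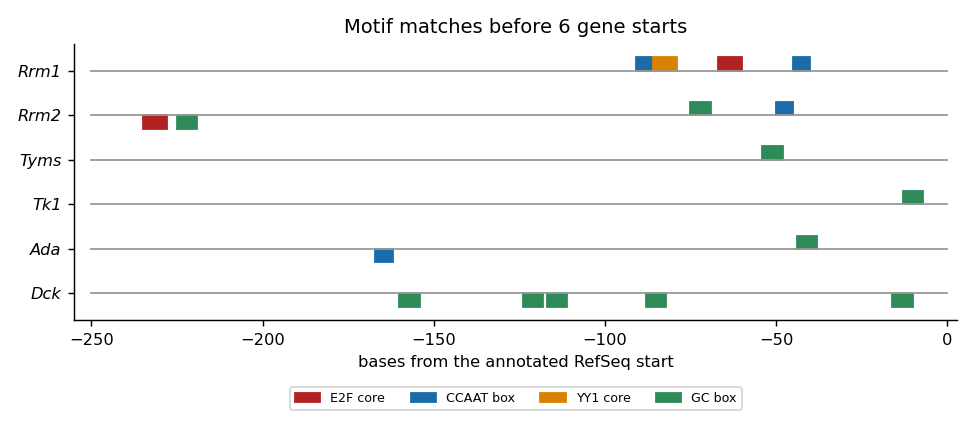
Positions of motif matches in the 250 bases before the annotated start of 6 genes (x axis, bases from the start; boxes above the line are on the gene's strand, boxes below it on the other strand). E2F cores appear for Rrm1 and Rrm2, and Dck carries GC boxes without a CCAAT box.

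Genes whose loss harms lymphocytes were set beside those with more general roles. Loss of Ada causes severe combined immunodeficiency in humans and mice, and mice without Dck have few T and B cells. The other 8 genes are known mainly for roles in all dividing cells or in other tissues, such as Hprt, whose loss in humans causes Lesch-Nyhan disease, and Adk, whose loss in mice harms the newborn liver. All of the 2 and all of the 8 were above background on each array. The SD between mice was 0.13 for Ada and 0.22 for Dck, and it ran from 0.05 to 0.27 for the other 8, with a median of 0.18 in both sets. Ada and Dck therefore lay within the range of the others and did not share an order, since Ada was highest in mouse 103 and Dck was lowest there. Pnp, the purine nucleoside phosphorylase that acts after Ada and whose loss in humans depletes T cells, was at 8.78, 8.70 and 8.51 (mean 8.66 ± 0.14, log2 level, SD, n = 3), lowest in mouse 106 like Ada.

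Around the 10 genes, 61 of 71 listed genes of nucleotide metabolism had a probe set of their own. Of these 61, 55 were above background on all arrays, as were 61.8% of all named genes. The 10 listed genes without such a probe set were not analysed here. Of the 57 tested, 1 varied in limma (Gda, below background in mouse 92) and 4 had an unadjusted p under 0.05. The shares over all tested genes were 0.225% and 4.84%. The median SD of the 57 was 0.13, the same as that of all tested genes.

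Paralogues and partners of the 10 genes were also above background on all arrays. Rrm2b, the small reductase subunit made in resting and p53-activated cells, was at 7.83, 7.93 and 7.58 in mice 92, 103 and 106, lowest in mouse 106, where Rrm2 was highest. The mitochondrial deoxynucleoside kinase gene Dguok was at 8.53, 8.48 and 8.49, and Tk2, which also acts in mitochondria, averaged 8.12 ± 0.10 (log2 level, SD, n = 3). Dguok had an SD of 0.03, against 0.22 for Dck and 0.27 for Tk1. Aprt, which salvages adenine, was at 8.08, 8.22 and 7.94. The ectonucleotidase gene Nt5e, whose product CD73 makes extracellular adenosine, was at 7.66, 7.76 and 7.54, and Entpd1, which encodes CD39, at 6.26, 6.61 and 6.65. Rrm2b and Entpd1 had SDs of 0.18 and 0.21, within the range of the 10 genes. The limma adjusted p of each of these 6 genes was between 0.996 and 0.998.

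Nucleoside carriers other than Slc29a1 included the gene with the widest spread of these lists that stayed above background on all arrays. Slc28a2, a sodium-coupled transporter of purine nucleosides, read 9.03, 8.30 and 8.12 in mice 92, 103 and 106. The range was 1.88-fold (limma unadjusted p = 0.00323, adjusted p = 0.365), and mouse 92 was highest. The spread rested on that mouse: the SD was 0.48 over the 3 mice and 0.13 without mouse 92. Slc28a1, its pyrimidine counterpart, was at 6.53, 6.88 and 6.42. Of the 6 carriers listed beside Slc29a1, 4 were above background on all arrays; Slc28a3 was on none and Slc29a4 on 1.

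Among genes of synthesis, those of the deoxynucleotide list were lowest in mouse 92 in 10 of 16 cases, where 35.1% of tested genes were. Of these 16, 8 were highest in mouse 103 and 5 in mouse 106, against 39.1% and 23.5% of tested genes. Neutrophil genes (12 of 12) and B cell genes (9 of 9 measured) were also lowest in mouse 92, whereas thymocyte markers were mostly highest there, and their part in these values was not tested. Nme2, a nucleoside diphosphate kinase gene, was at 8.11, 8.29 and 8.82 in mice 92, 103 and 106 (limma unadjusted p = 0.0173, adjusted p = 0.760). Dctpp1, whose product removes dCTP and its analogues, was at 8.46, 9.06 and 8.77. The pyrimidine gene Cad, which encodes the enzyme of the opening steps of pyrimidine synthesis, was at 8.55, 8.87 and 9.06, and the uridine-cytidine kinase gene Uck2 averaged 10.14 ± 0.14 (log2 level, SD, n = 3). Nme2, Cad and Uck2 shared the order of Tk1, with mouse 92 lowest and mouse 106 highest. Genes of purine synthesis had no common order. Of 12 measured, 6 were highest and 5 lowest in mouse 92, against 37.4% and 35.1% of tested genes. Their median deviations were 0.00, 0.04 and -0.04 in mice 92, 103 and 106. Adss, which encodes adenylosuccinate synthetase, was at 10.15, 10.01 and 9.69 and Prps1, which makes phosphoribosyl pyrophosphate, at 10.42, 10.11 and 10.08, both highest in mouse 92. For these 6 genes only Nme2 and Dctpp1 (unadjusted p = 0.0493, adjusted p = 0.996) had an unadjusted p under 0.05 in limma.

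Gda, the one gene of these lists with a limma adjusted p under 0.05 (0.0485), was above background in mice 103 and 106 alone, and entered the test through them. It encodes guanine deaminase, which drains guanine away from salvage by Hprt. Gda read 5.64, 7.20 and 6.96 in mice 92, 103 and 106, and its value in mouse 92 lay below that array's threshold of 5.91. Set against the threshold, mouse 103 was at least 2.45-fold higher than mouse 92. The call ended without mouse 92 (adjusted p = 0.998 in limma) and after quantile (0.125), median (0.0598) and cyclic loess normalisation (0.110). Neutrophil genes were likewise lowest in mouse 92 in 12 of 12 cases, and 10 of them were highest in mouse 103 and 2 in mouse 106. Over all tested genes, 35.1% were lowest in mouse 92 and 39.1% highest in mouse 103. Of the neutrophil genes 6 of 11 tested varied, against 0.225% of all tested genes, and 7 of 12 were above background on all arrays. Their summed linear level was 904, 3785 and 3157 in mice 92, 103 and 106. B cell genes were lowest in mouse 92 in 9 of 9 measured cases, with summed levels of 1006, 2183 and 1702. The part of such cells in the Gda value was not tested. The degradation genes Xdh, at 6.52, 6.93 and 6.89, and Ampd1, at 6.83, 6.74 and 6.39, had limma adjusted p of 0.996.

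**Figure D5:**
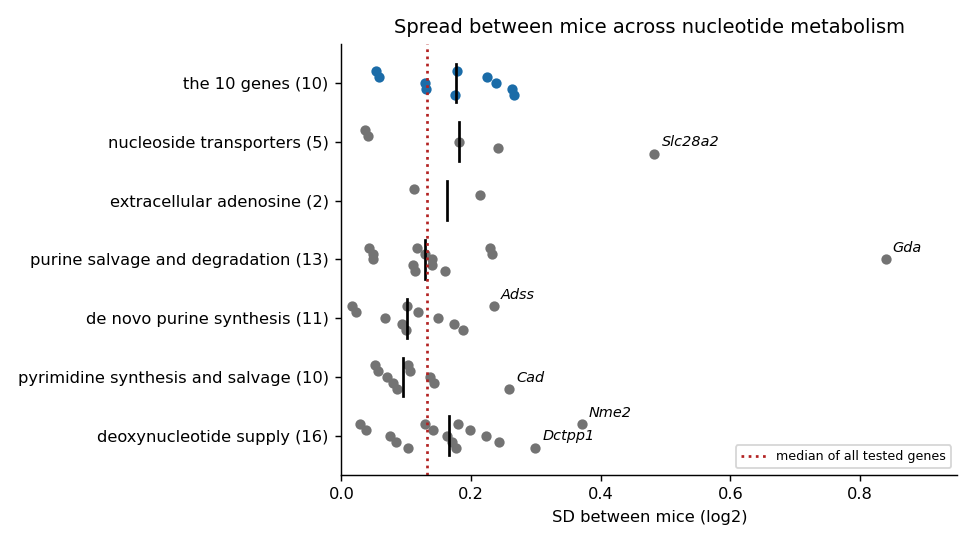
SD between the 3 mice (x axis, log2) for the 10 genes and for the tested genes of 6 further lists of nucleotide metabolism (rows, number of genes in brackets); black bars are medians and the dotted line is the median of all tested genes, 0.13. The 10 genes lie between 0.05 and 0.27, and Gda at 0.84, with mouse 92 below background, and Slc28a2 at 0.48 lie apart from their lists.

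Tk1 had the largest SD of the 10 genes, 0.2663 against 0.2637 for Hprt. This rank depends on the processing: Hprt was first after median centring (0.2708 against 0.2591 for Tk1) and without mouse 103 (0.3718 against 0.3627). Hprt was also first with the probe set of highest mean level (0.2637 against 0.2181), which for Tk1 is probe set 10582809. Samhd1 was first without mouse 92 (0.3157 against 0.0935 for Tk1) and Dck without mouse 106 (0.3145 against 0.2692). The genes whose 3 deviations lay nearest to those of Tk1 were sought among 12312 other genes above background on all arrays. Vegfa, Ms4a4c and L3mbtl1 had a Euclidean distance of 0.013 on the log2 scale, and Mrpl14 and Mir423 one of 0.014. Vegfa, the vascular growth factor gene, was at 6.88, 7.28 and 7.39 in mice 92, 103 and 106. Within a distance of 0.1 lay 130 genes, so that over 3 arrays the likeness picks out no small group.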

How the data were processed

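Trizol-extracted, biotin-labelled thymocyte RNA of 3 wild-type animals went onto 1 array each, per the labels' protocols. The authors deposited log2 levels for 35557 probe sets (1.76 to 14.96), and it is this range that points to log2 values. Per the submitters' processing notes they came from Affymetrix Expression Console. How background was corrected and arrays normalised is not given in the sources used here. Arrays not analysed here may have entered that normalisation.

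Of the probe sets, 21789 had 1 gene symbol in the platform annotation, 1621 had several and 12147 were not listed. Entrez identifiers matched 21698 of them to RefSeq (GRCm38.p6), with 0 symbols differing. Probe sets of a gene were averaged. Variances were estimated in limma (version 3.58.1, R version 4.3.3) with an intercept and a prior variance trended on level and not robust (10.4 prior degrees of freedom). The test of gene spread was an upper-tail F ratio computed from these estimates. Benjamini-Hochberg adjustment ran over genes above background on at least 1 array. On simulated levels, the test recovered 0 of 100 genes given a shift of 1 on the log2 scale in 1 mouse. With a shift of 2 it recovered 94 of 100, with 0 false calls. The p-values of the test on the real levels reflect only how these 3 samples differ.

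The members and lists were chosen with earlier results of these data known, and the motifs after the sequences were read. Of 191 listed symbols, 177 were measured. Named were the members, set partners (Pnp, Rrm2b, Dguok, Tk2, Aprt, Nt5e), the 2 genes of largest SD in each pathway list, counting those that exceeded background in all 3 mice, every pathway gene that varied, up to 2 genes per marker list and the 5 nearest to the member of largest SD. Thymic epithelial genes (median deviations -0.13, 0.16 and -0.02 in mice 92, 103 and 106) and fibroblast and endothelial genes (-0.04, 0.11 and -0.04) are given here only. Alternatives were other normalisations, priors, filters, thresholds and each mouse left out.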

Additional observations from a re-analysis of the deposited data

How the results depend on the processing

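All 10 genes stayed above background with the threshold at the 99th percentile of receptor genes, at the median of all named genes, and without each mouse. No spread of the 10 genes passed limma's test under any of 11 alternatives, whose adjusted p ran from 0.602 to 0.998. At an unadjusted p under 0.05 in limma, between 0 and 2 of them were found when 1 mouse was left out. These were Rrm2 and Samhd1 without mouse 92 (0.0461 and 0.0142) and Hprt and Tk1 without mouse 103 (0.0368 and 0.0348). Among all tested genes, 740 of 13093 were found without mouse 92, 761 of 13132 without mouse 103 and 744 of 13204 without mouse 106. Each of these tests rested on 2 arrays. The count of all varying genes, 30, was 18 after quantile normalisation and 18 after cyclic loess normalisation, 44 with a robust prior, and 48 to 84 with 1 mouse left out (58 without mouse 92, 48 without mouse 103, 84 without mouse 106). The cause was not tested. The 36 medians of deviation under alternatives each moved by less than the SD between mice, but those in mouse 103, which lie near 0, changed sign: from -0.0154 for the salvage genes to 0.0228 (quantile), 0.0083 (cyclic loess) and 0.0796 (without mouse 92), and from -0.0243 for the S phase genes to 0.0121 (quantile), 0.0093 (cyclic loess) and 0.0067 (without mouse 106). The S phase median in mouse 106 was 0.13 with all mice and 0.057 without mouse 92. Gda did not pass in 6 of 10 alternatives, also not without a filter on low values (adjusted p = 0.0742, limma) or with the brightest probe set of each gene (0.0580). No paired analysis was possible because there is a single group. Signal over background limits Gda, which was below the threshold in mouse 92.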

Other observations

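Some probe sets near these pathways are annotated with more than 1 gene and were named for none in the comparisons. The probe set shared by Pnp and Pnp2 read 10.06, 10.29 and 9.94 in mice 92, 103 and 106, lowest in mouse 106 as was the probe set of Pnp alone. The probe sets shared by Ahcy, the enzyme that frees adenosine from S-adenosylhomocysteine, and Gm4737 read lowest in mouse 92 in each of 3 cases, with levels from 9.84 to 10.37 on the log2 scale. The probe set shared by Nme2 and Dscaml1 read 8.99, 9.29 and 9.54, in the same order as the probe sets named for Nme2 alone.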
